A study of Mus musculus with 4 samples.

Results

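The genes examined here encode the proteins of the mitochondrial ribosome and were chosen by name, as the rows whose symbol starts with Mrpl or Mrps followed by a digit. There were 78 such genes among the 22322 in the files, of which 49 were Mrpl genes (large subunit) and 29 were Mrps genes (small subunit). All 78 were annotated as protein coding, lay on 17 chromosomes and passed the filter on low counts, which left 12499 genes to test. RNA had been sequenced from cardiomyocytes of 2 sham-operated mice and 2 mice given TAC (transverse aortic constriction), in which the aorta is tied to a narrower width so that the left ventricle pumps against a raised pressure. Per the study's methods, the mice were males operated on as young adults and examined months later, at the stage of heart failure, and the sources used here do not give the strain. Hearts were dissociated by Langendorff perfusion, and each RNA sample came from part of the cells of a single heart. No transgene is named for either group, and the agents the methods name are the anaesthetics of the operation, ketamine and xylazine. The aim of the comparison in the study was to describe how pressure overload changes the transcriptome of heart muscle cells, and here it is read for the mitochondrial ribosome alone.

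Mitochondria translate only the few proteins that their own genome encodes, which are core subunits of the respiratory chain and of ATP synthase. The ribosome that does so takes its RNAs from the mitochondrial genome, while every one of its proteins is encoded in the nucleus, made in the cytosol and imported. The small subunit binds the mRNA and reads the codons, and the large subunit joins the amino acids and releases the chain through an exit tunnel towards the inner membrane. Heart muscle is among the tissues richest in mitochondria, and inherited defects of several of these proteins cause cardiomyopathy in humans.

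The libraries held 24237777 to 32118323 counts, with 14495 to 14949 genes counted in each, and the 78 genes held 162 to 3282 counts each per library. Cardiomyocyte markers matched the label. The summed level of 15 of them (Myh6, Actc1, Tnnt2 and others) was 88061 to 97654 CPM (counts scaled to a common library size) in the sham and 92544 to 97514 CPM in the TAC libraries, with 10 higher and 5 lower in TAC, of which 1 was called in each direction. Markers of other cells were also present, and most of those lists were lower in TAC. The sum of 15 endothelial markers was 957.5 and 802.8 CPM in sham 1 and sham 2 and 460.3 and 635.1 CPM in TAC 1 and TAC 2, with 15 of 15 lower in TAC and 4 called (edgeR adjusted p under 0.05, by which 2.43% of all tested genes were called lower). The sum of 15 fibroblast markers was 613.7 and 427.4 CPM in sham and 247.1 and 340.3 CPM in TAC, again with 15 of 15 lower and 4 called, and the sum of 15 macrophage markers was 147.2 and 74.5 against 40.7 and 75.6 CPM, with 15 lower and 0 called. Of 12 mural markers 11 were lower and 2 called, while their sum, which includes the muscle gene Des, was 2275 and 2408 CPM in sham and 2436 and 2600 CPM in TAC. The sum of 5 erythroid markers was 84.9 and 73.7 CPM in sham and 49.9 and 124.9 CPM in TAC, with 2 lower and 0 called. Of 22 immediate early genes, which cells switch on within minutes of a stimulus, 21 were lower and 12 called. No listed marker was at 0 in all libraries. TAC 1 stood apart in the 13 mRNAs of the mitochondrial genome, which took 47.4% of its counts against 39.8% to 40.9% in the other 3 libraries. The part of these differences in the values below was not tested, and since the samples are bulk RNA, fewer cells of a type and less RNA per cell cannot be told apart.

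All of the genes had reads in every library, over a wide range of levels. Levels of different genes are compared here only in the deposited FPKM, which are fragment counts scaled by transcript length and library size. The median over genes of the mean FPKM was 22.8 for the large subunit (interquartile range 17.2 to 34.8) and 19.8 for the small subunit (12.2 to 26.9), against 3.90 for all tested genes. The most abundant was Mrpl42 (a large subunit protein found only in mitochondrial ribosomes), at 160.6 and 170.7 FPKM in sham 1 and sham 2 and 155.9 and 164.4 FPKM in TAC 1 and TAC 2. Next in the large subunit was Mrpl12, which forms the flexible stalk that binds translation factors, at 71.0, 72.6, 75.1 and 84.0 FPKM in the same order. Mrpl30 was at 70.2, 72.1, 67.0 and 70.0 FPKM. Among these, Mrpl42 was separate from the rest, while the ranges of Mrpl12 and Mrpl30 overlapped. The small subunit was led by Mrps23, at 76.4, 82.8, 86.3 and 90.1 FPKM. Mrps21 followed at 46.1, 49.8, 46.2 and 57.1 FPKM and Mrps34 at 43.9, 45.3, 47.6 and 48.5 FPKM, so that these 2 were not separated beyond their spread. The lowest levels were 3.08 FPKM for Mrpl57 and 3.37 FPKM for Mrps26 (means over 4 libraries). The levels of different genes of one subunit were thus far more spread than the 4 libraries of any of these genes.

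**Figure D1:**
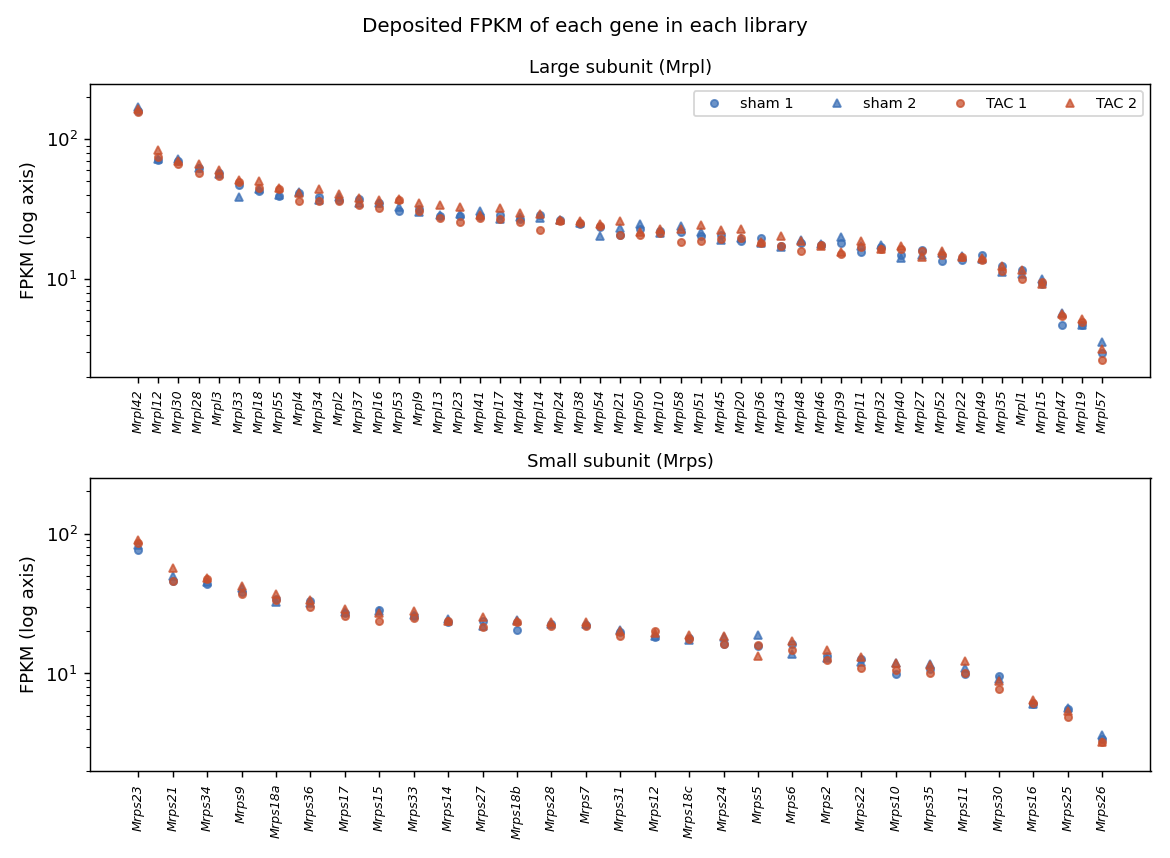
Deposited FPKM (log axis) of each large subunit gene (upper panel) and small subunit gene (lower panel) in the 4 libraries, with genes ordered by their mean. Symbols of the 4 libraries lie close together for each gene, from Mrpl42 at 162.9 down to Mrpl57 at 3.08 FPKM.

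Since the genes are compared as a group, the sequence before their start sites was read as well. RefSeq promoter windows (GRCm38.p6, the build of the files, from 250 bases before to 50 bases after the start) were found for 69 of the 78 genes. Motifs were searched on both strands, so that a match may be the reverse complement of the letters given. The core of the nuclear respiratory factor NRF1, written GCGCANGCG, was found in 16 of 69 genes (23.2%), in 27.9% of the large and 15.4% of the small subunit genes, against 7.03% of all 27025 genes with a window and 15.2% of the tested genes with one. The ETS motif CCGGAAG, to which GABP binds, was found in 26 genes (37.7%), in 34.9% of the large and 42.3% of the small subunit genes, against 9.93% of all and 19.9% of tested genes. The YY1 motif AAGATGGCG was in 8 genes (11.6%, against 1.64% and 3.56%). The GC-box GGGCGG was found in 49.3% (38.2% and 68.8%), the motif of oestrogen-related receptors AAGGTCA in 5.8% (5.38% and 3.83%) and the E-box CACGTG in 7.25% (8.09% and 11.8%). Within the windows of the 69 genes ETS and GC-box matches overlapped 2 times, and an AAGGTCA match and an E-box overlapped 1 time. Median GC content was 58.7% in these windows, 60.7% in those of tested genes and 52.7% in all. ETS and NRF1 matches are shown for genes whose values are described below, as 30 bases on the strand of the gene with the match in capitals. A match is a description of the letters and does not show that a factor binds.
Mrpl12, NRF1, chr11:120484546-120484575, plus strand: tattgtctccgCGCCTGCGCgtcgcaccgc
Mrpl10, NRF1, chr11:97041436-97041465, plus strand: gcccagctccaCGCATGCGCatagcggccc
Mrps21, NRF1, chr3:95871586-95871615, minus strand: ggaaagtccagCGCCTGCGCtcagcaccga
Mrpl22, ETS, chr11:58171599-58171628, plus strand: acttttccggtcCCGGAAGccggcctcgga
Mrpl27, ETS, chr11:94653724-94653753, plus strand: tgtccgcaagacCCGGAAGtagatctatcc
Mrps18a, ETS, chr17:46110966-46110995, plus strand: cacacccctgctCCGGAAGcggaagtgcac

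The comparison of TAC with sham gave slightly higher levels for nearly all of these genes, in both subunits to a similar extent, and no single gene passed the edgeR test. With libraries scaled by TMM (trimmed mean of M-values, which sets the bulk of genes to no change), the median log2 fold change was 0.22 for the 49 large subunit genes (interquartile range 0.16 to 0.29) and 0.21 for the 29 small subunit genes (0.15 to 0.26), or 1.16-fold in each case. The medians differed by 0.01, and no test compared them, since the genes of a subunit are not replicates. The median over all tested genes was −0.01 (interquartile range −0.29 to 0.18). Log2 fold changes were above 0 in 48 of 49 large and 29 of 29 small subunit genes, where this held for 49.1% of all tested genes. Both TAC libraries lay above both sham libraries in 39 of 49 large and 24 of 29 small subunit genes, against 29.8% of all tested genes, and in no case did both lie below. This order depended on the scaling: with counts scaled by library totals it was found in 13 large and 3 small subunit genes (8.74% of all tested genes), and both TAC libraries lay below in 4 large and 5 small (47.7% of all tested genes). By the edgeR quasi-likelihood test, 0 of the 78 genes were called at a Benjamini-Hochberg adjusted p under 0.05, where 2.58% of all tested genes were called higher and 2.43% lower. The lowest adjusted p was 0.0503 in the large subunit (Mrpl12) and 0.0704 in the small (Mrps23). At an unadjusted p under 0.05 there were 27 large and 10 small subunit genes, all higher in TAC, against 13.5% of all tested genes that were higher at that level. DESeq2 and limma voom each called 1 gene, Mrpl12 (adjusted p = 0.0228 and 0.0491), where they called 3.58% and 2.9% of all tested genes higher. The standard errors of the 78 genes ran from 0.07 to 0.17 on the log2 scale, and the smallest absolute log2 fold change called in any tested gene by this test was 0.31, a size that 11 large and 0 small subunit genes reached.

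**Figure D2:**
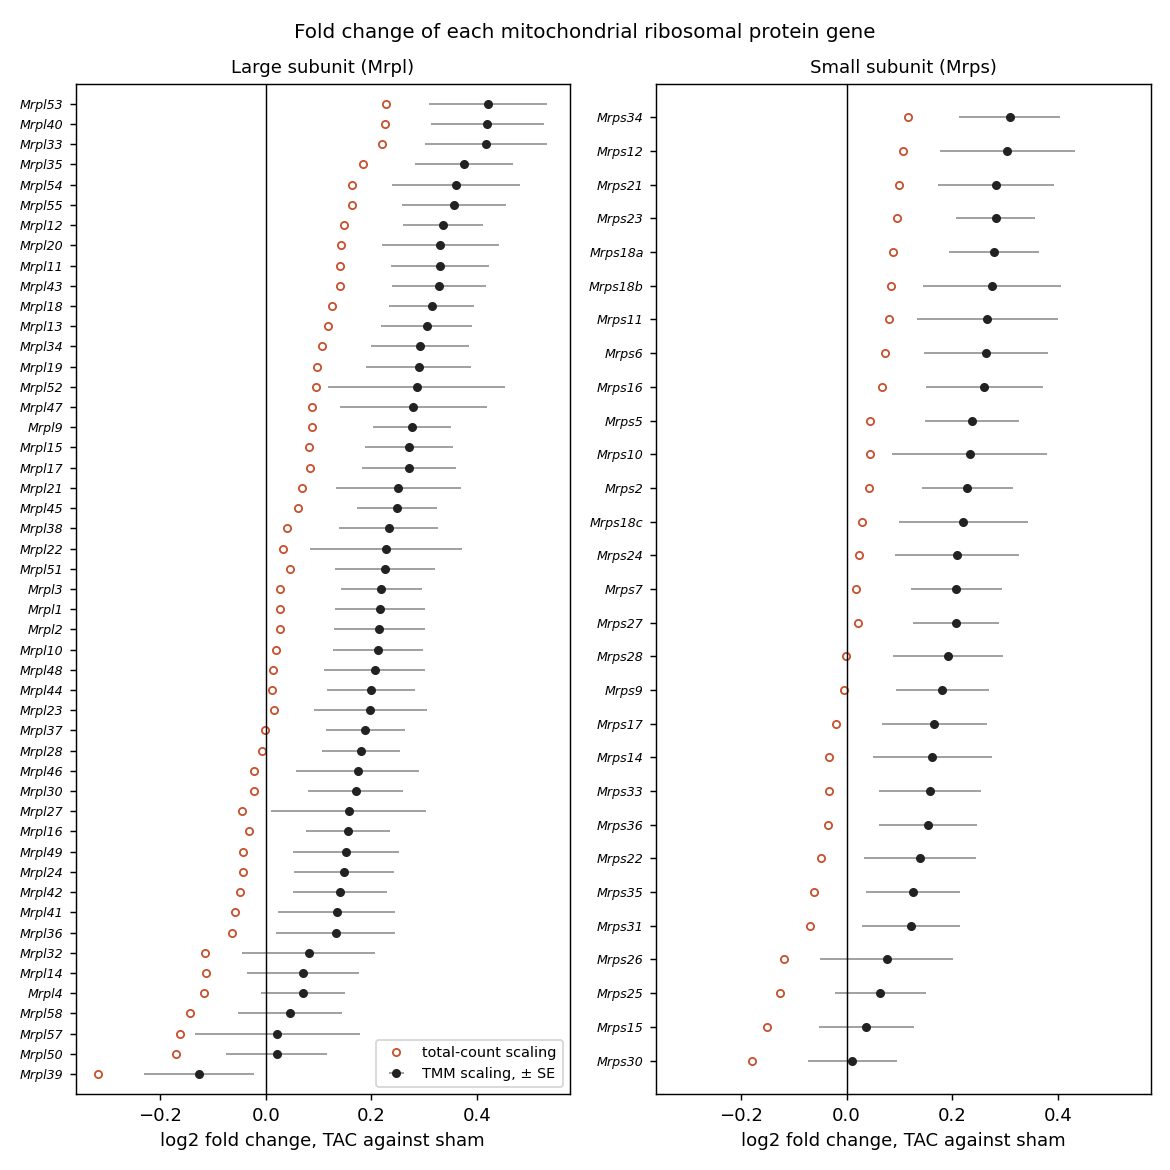
Log2 fold change of TAC against sham for each large subunit gene (left) and small subunit gene (right), as filled points with ± SE for TMM scaling and open points for total-count scaling. With TMM all but Mrpl39 lie above 0, and with total counts 31 of 49 large and 16 of 29 small subunit genes do.

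How high these genes stood in TAC depended on how the libraries were scaled. When counts were scaled by the library totals, which is the scaling the study named, the median log2 fold change was 0.03 for the large subunit and 0.02 for the small, with 31 of 49 and 16 of 29 genes above 0 (23.2% of all tested genes). By edgeR 0 of the 78 were called (0.84% of all tested genes higher, 3.38% lower), and 1 gene (Mrpl39, lower in TAC, at −0.32) had an unadjusted p under 0.05, where 21.3% of all tested genes were lower at that level. The median of all tested genes was then −0.20, so that relative to it the subunits stood at 0.22 in both cases, against 0.23 and 0.22 with TMM. With totals that left out the 13 mitochondrial mRNAs, the medians were 0.12 and 0.11 and that of all tested genes −0.11. In the deposited FPKM, the median log2 ratio of group means (pseudocount 0.1) was 0.02 in each subunit, against −0.18 over all tested genes. A library scaling shifts all genes by nearly the same amount, so that the distance of the subunits from the median gene is set by that construction and is no separate support. Mrpl39 lay below the median gene with TMM and with total counts.

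**Figure D3:**
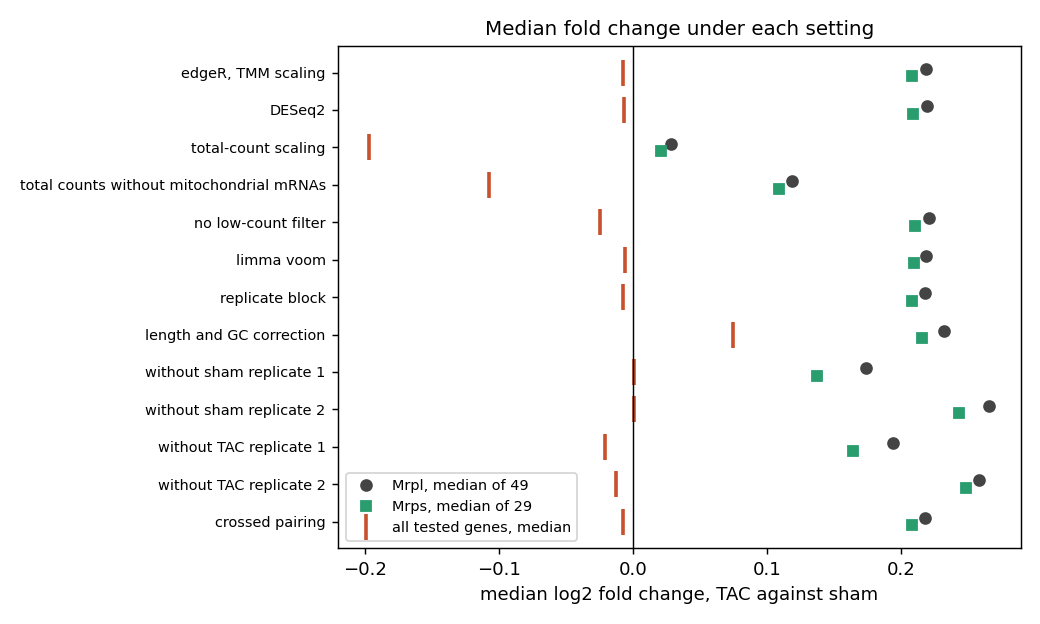
Median log2 fold change of the large subunit genes (circles), the small subunit genes (squares) and all tested genes (bars) under each way of scaling and testing. Both subunits lie close to each other and to the right of the bar in every setting shown.

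Single libraries were examined next. Relative to the mean of the 4 libraries, the median log2 CPM of the large subunit genes with TMM was −0.15 and −0.07 in sham 1 and sham 2 and 0.16 and 0.08 in TAC 1 and TAC 2. For the small subunit genes it was −0.14, −0.03, 0.12 and 0.06. The 2 subunits therefore had the same order of libraries, with sham 1 lowest and TAC 1 highest. Sham 2 was above sham 1 in 64 of the 78 genes and TAC 2 below TAC 1 in 61, by a median absolute log2 difference of 0.11 and 0.10 within the groups. The difference between group means was larger than both of these gaps in 50 of the 78 genes, all higher in TAC, against 23.9% of all tested genes that were higher by more than both gaps. Leaving out 1 library in turn moved the medians between 0.17 (without sham 1) and 0.27 (without sham 2) for the large subunit and between 0.14 (without sham 1) and 0.25 (without TAC 2) for the small. Without TAC 2, 5 large subunit genes (Mrpl53, Mrpl33, Mrpl35, Mrpl55 and Mrpl12) and 1 small (Mrps34) passed the edgeR test, in a setting where 4.34% of all tested genes were called higher (560 genes, against 322 with all libraries). When each of the other 3 libraries was left out in turn, 0 passed. With total counts the order of libraries was different. The medians were then −0.02, −0.02, −0.04 and 0.10 for the large and −0.01, 0.02, −0.08 and 0.07 for the small subunit, so that the TAC libraries lay on either side of the sham libraries. Without TAC 2 the medians with total counts were −0.04 and −0.05, and without TAC 1 they were 0.12 and 0.08.

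**Figure D4:**
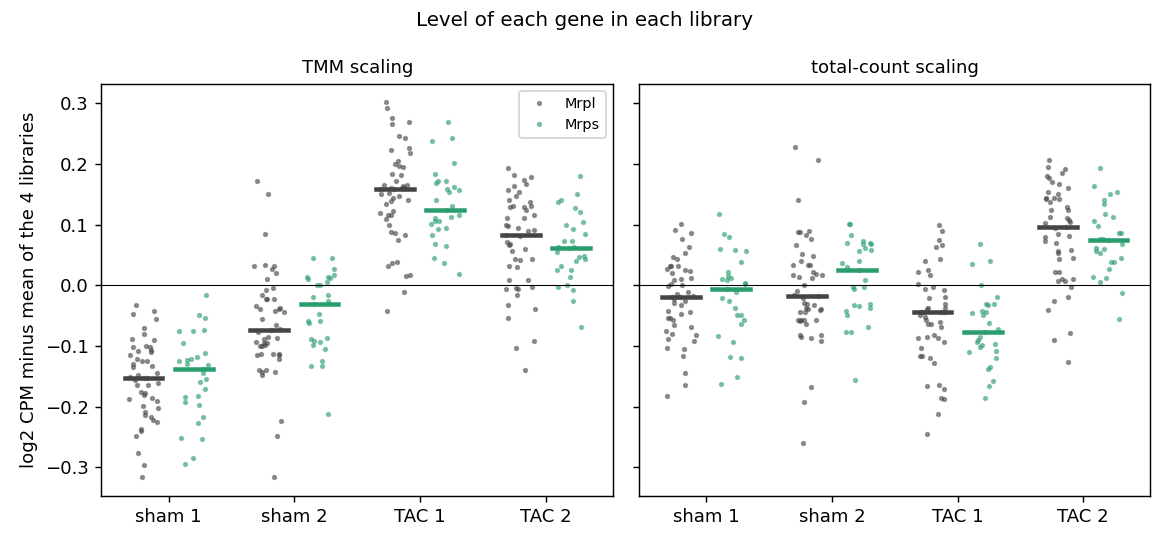
Log2 CPM of each gene minus its mean over the 4 libraries, for TMM scaling (left) and total-count scaling (right), with large subunit genes in grey, small subunit genes in green and bars at the medians. With TMM the medians of both TAC libraries lie above those of both sham libraries, and with total counts the median is lowest in TAC 1 and highest in TAC 2.

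As a measure of the whole ribosome, the counts of each subunit were summed per library. The large subunit genes took 0.166% and 0.168% of all counts in sham 1 and sham 2, and 0.161% and 0.179% in TAC 1 and TAC 2, with 95% Wilson intervals of 0.164 to 0.167, 0.166 to 0.169, 0.1596 to 0.162 and 0.177 to 0.180. The means were 0.167% ± 0.00137 in sham and 0.170% ± 0.0125 in TAC (SD, n = 2 each). The small subunit genes took 0.0804% (0.0794 to 0.0814), 0.0819% (0.0808 to 0.0830), 0.0774% (0.0765 to 0.0784) and 0.0860% (0.0849 to 0.0872). The TAC libraries were the lowest and the highest for both subunits, so the groups overlapped. Of the counts without mitochondrial mRNAs, the large subunit had in sham 1 a share of 0.275% (0.273 to 0.278) and in sham 2 one of 0.283% (0.281 to 0.286), while TAC 1 had 0.306% (0.304 to 0.309) and TAC 2 had 0.2995% (0.297 to 0.302). The share of the small subunit was 0.134% (0.132 to 0.135), 0.139% (0.137 to 0.140), 0.147% (0.145 to 0.149) and 0.144% (0.142 to 0.146). These intervals cover counting error only. On this base both TAC libraries lay above both sham libraries, by 1.08-fold for the large and 1.07-fold for the small subunit, and with 2 against 2 libraries an exact permutation test cannot go below p = 0.333. The ratio of small to large subunit counts does not depend on the scaling. It was 0.485 and 0.489 in sham 1 and sham 2 and 0.481 in both TAC libraries, or 0.487 ± 0.00242 in sham and 0.481 ± 0.000419 in TAC (SD, n = 2 each), a quotient of 0.988. The 2 subunits thus kept nearly the same proportion in every library.

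Within the large subunit, the highest fold changes were shared between proteins that bacterial ribosomes also have and proteins particular to mitochondria. Mrpl53 (ENSMUSG00000030037, chr6:83109040-83109939), specific to mitochondria, was at 19.4 and 21.9 CPM in sham 1 and sham 2 and 29.4 and 25.8 CPM in TAC 1 and TAC 2. Its log2 fold change was 0.42 ± 0.11 (SE), with an edgeR adjusted p of 0.0714. Mrpl40 (ENSMUSG00000022706, chr16:18872018-18876862), a protein of the central protuberance, the crest of the large subunit that faces the small one, was at 14.5, 14.1, 20.05 and 18.2 CPM (0.42 ± 0.11, edgeR adjusted p = 0.0655). Both genes had a gap between the highest sham and the lowest TAC library that was larger than the gap within either group. Mrpl33 (ENSMUSG00000106918, chr5:31596935-31664384), which has a bacterial counterpart, was at 20.6, 17.8, 27.1 and 24.1 CPM (0.42 ± 0.12, edgeR adjusted p = 0.079). Mrpl35 (ENSMUSG00000052962, chr6:71812997-71826969), also conserved, was at 23.1, 24.3, 31.9 and 29.5 CPM (0.38 ± 0.09, edgeR adjusted p = 0.0619). Mrpl54, specific to mitochondria, was at 13.0, 11.8, 16.8 and 14.9 CPM (0.36 ± 0.12, edgeR adjusted p = 0.115). In all 5 the CPM values with TMM did not overlap between the groups and none passed the test, and with total counts their log2 fold changes were 0.16 to 0.23. In the deposited FPKM the groups overlapped for Mrpl35, at 12.5 and 11.3 in sham against 11.5 and 12.4 in TAC (log2 ratio 0.01), and not for the other 4. Exons of Mrpl53 overlap those of Gm42688 and Ccdc142os and those of Mrpl33 overlap Gm43809, and the sources used here do not say whether counting used strand.

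The stalk, which recruits the initiation and elongation factors, had the highest median of the structural groups examined. Its 3 genes had a median log2 fold change of 0.33, and all 3 had TAC libraries above the sham libraries (29.8% of all tested genes), as 2 had with total counts (8.74%). Mrpl12 (ENSMUSG00000039640, chr11:120484613-120489065), the protein of the flexible arm, was at 85.2 and 91.9 CPM in sham 1 and sham 2 and at 114 and 110 CPM in TAC 1 and TAC 2. Both TAC libraries were well above both sham libraries. With TMM its log2 fold change reached 0.34 ± 0.08, at an edgeR adjusted p of 0.0503, and with total counts 0.15. Mrpl12 was the gene most often past the threshold in the other settings that were run. Its exons overlap those of Gm16755. Mrpl11, at the base of the stalk, was at 20.9 and 22.4 CPM in sham and 27.4 and 27.1 CPM in TAC (0.33 ± 0.09, edgeR adjusted p = 0.0814). Mrpl10, which anchors the arm, was at 34.2, 35.0, 41.8 and 38.4 CPM (0.21 ± 0.08, edgeR adjusted p = 0.162). The windows shown above for Mrpl12 and Mrpl10 hold an NRF1 match, and that of Mrpl11 held none. Such matches were also found for genes with low fold changes, namely Mrpl39, Mrpl57 and Mrps26.

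The 6 genes around the exit tunnel, through which the new chain leaves, all had both TAC libraries above both sham libraries, with a median of 0.24 (29.8% of all tested genes had that order). With total counts the groups overlapped in all 6, and the median was 0.05. Mrpl45, which lies at the tunnel exit and attaches the ribosome to the inner membrane, was at 45.9 and 45.0 CPM in sham and 53.8 and 54.2 CPM in TAC (0.25 ± 0.07, edgeR adjusted p = 0.0921). Replicates of Mrpl45 lay close together in both groups. Mrpl47 was at 14.5, 18.5, 21.1 and 18.9 CPM (0.28 ± 0.14), Mrpl17 at 22.8, 23.5, 27.6 and 28.3 CPM (0.27 ± 0.09) and Mrpl22 at 8.98, 10.2, 12.1 and 10.3 CPM (0.23 ± 0.14). In Mrpl47 and Mrpl22 sham 2 and TAC 2 were nearly level. Mrpl23 (0.20 ± 0.11) and Mrpl24 (0.15 ± 0.09) had the smallest values of this group, whose adjusted p by edgeR were 0.0921 or above.

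The 6 genes of the central protuberance had a median of 0.22, and in 4 of them both TAC libraries lay above both sham libraries (29.8% of all tested genes), and in 3 with total counts (8.74%). Besides Mrpl40, Mrpl18 was at 47.7 and 51.8 CPM in sham and 63.0 and 60.7 CPM in TAC (0.31 ± 0.08, edgeR adjusted p = 0.066), with exons that overlap Tcp1. Mrpl38 was at 31.8, 34.1, 41.0 and 36.4 CPM (0.23 ± 0.09) and Mrpl48 at 22.3, 23.2, 27.3 and 25.1 CPM (0.21 ± 0.10). The 2 that overlapped were Mrpl46, at 18.1, 19.4, 22.9 and 19.3 CPM (0.17 ± 0.12), and Mrpl27, at 11.2, 10.9, 13.8 and 10.8 CPM (0.16 ± 0.15). In both the level in TAC 2 lay within or just under that of the sham libraries, and TAC 1 alone was higher. Exons of Mrpl46 overlap those of Mrps11 on the opposite strand, so reads of this pair cannot be told apart without strand.

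By origin, 29 large subunit genes with a bacterial counterpart had a median of 0.23, and 26 of them had both TAC libraries above both sham libraries, as 29.8% of all tested genes did. The 19 genes particular to mitochondria had a median of 0.20, with 12 in that order. In the small subunit, 16 conserved genes had a median of 0.23 (14 in that order) and 10 particular to mitochondria a median of 0.15 (8 in that order). With total counts 7, 5, 2 and 1 genes of these 4 groups had that order (8.74% of all tested genes). Both TAC libraries were then below both sham libraries in 1, 3, 2 and 2 (47.7% of all tested genes). The medians with total counts were 0.032, 0.012, 0.035 and −0.040. None of the 4 groups held a called gene (2.58% of all tested genes called higher and 2.43% lower). In each subunit the conserved genes had the slightly higher median, and the interquartile range of each group overlapped that of its counterpart.

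A few large subunit genes had similar levels in both groups. Mrpl39 (ENSMUSG00000022889, chr16:84717576-84735742), the only one of the 78 with a negative log2 fold change, was at 38.2 and 44.5 CPM in sham 1 and sham 2 and 39.9 and 35.8 CPM in TAC 1 and TAC 2. These sham and TAC values overlapped (−0.13 ± 0.10, edgeR adjusted p = 0.461). With total counts its log2 fold change was −0.32, and without TAC 2 under that scaling it was called lower (edgeR adjusted p = 0.031), in a setting that called 27.2% of all tested genes in either direction. In the deposited FPKM, both TAC values (15.1 and 15.8) lay below both sham values (18.3 and 20.2). Mrpl50 was at 44.1, 50.4, 50.1 and 45.8 CPM (0.02 ± 0.10) and Mrpl57 at 7.77, 9.80, 8.75 and 9.08 CPM (0.02 ± 0.16). Mrpl58, a release factor built into the ribosome that frees stalled chains, was at 19.9, 21.5, 21.6 and 21.1 CPM (0.05 ± 0.10). Mrpl4 was at 48.0, 51.8, 52.5 and 52.3 CPM (0.07 ± 0.08). Of these, only Mrpl4 had both TAC libraries above both sham libraries, by less than the gap between the sham libraries. In all, 7 large and 4 small subunit genes had a log2 fold change under 0.1, and 12 large and 2 small had one over 0.3.

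The small subunit had a narrower range, from 0.01 to 0.31. Mrps34 (ENSMUSG00000038880, chr17:24895116-24897502), specific to mitochondria and mutated in Leigh syndrome in humans, was at 37.0 and 40.5 CPM in sham and 51.0 and 44.9 CPM in TAC (0.31 ± 0.10, edgeR adjusted p = 0.0961). Its exons overlap those of Mapk8ip3 and Nme3. Mrps12, the protein of the decoding centre, was at 12.04, 12.9, 16.7 and 14.1 CPM (0.30 ± 0.13, edgeR adjusted p = 0.174). Mrps21, whose window above holds an NRF1 match, was at 19.0, 22.2, 24.4 and 25.7 CPM (0.28 ± 0.11, edgeR adjusted p = 0.15). In these 3 genes the groups did not overlap. Mrps23 (ENSMUSG00000023723, chr11:88204388-88211507), the most abundant of the small subunit, was at 87.1, 93.3, 111 and 108 CPM (0.28 ± 0.07, edgeR adjusted p = 0.0704). Its TAC libraries were close together and well above sham. At the lower end, Mrps15 was at 24.3, 25.3, 25.8 and 25.1 CPM (0.04 ± 0.09), Mrps25 at 30.9, 32.9, 34.1 and 32.6 CPM (0.06 ± 0.09) and Mrps26 at 13.3, 14.9, 15.9 and 13.7 CPM (0.08 ± 0.13), with overlap in all 3. Mrps31 was at 27.5, 29.99, 32.3 and 30.3 CPM (0.12 ± 0.09).

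Some of the names need care. Mrps30 and Mrps18a carry names of the small subunit, but in structures of the mammalian ribosome their proteins sit in the large one. Mrps18a was at 27.4 and 27.6 CPM in sham and 34.1 and 32.6 CPM in TAC (0.28 ± 0.09, edgeR adjusted p = 0.0941), while Mrps30 was between 28.8 and 29.5 CPM in all 4 libraries (0.01 ± 0.08, edgeR adjusted p = 0.947). Mrps18a thus had both TAC libraries above both sham libraries, and Mrps30 was nearly level in all 4. Moving both to the large subunit left the medians at 0.22 and 0.21. The relatives of Mrps18a had similar values, 0.28 ± 0.13 for Mrps18b and 0.22 ± 0.12 for Mrps18c. Mrps36, which is now assigned to the 2-oxoglutarate dehydrogenase complex, was at 0.15 ± 0.09.

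Genes in which human mutations cause mitochondrial disease were also read as a list. Of these 14, 13 had a log2 fold change above 0, with a median of 0.20. Both TAC libraries lay above both sham libraries in 11 (29.8% of all tested genes), and 0 were called by edgeR (2.58% of all tested genes called higher). An unadjusted p under 0.05 was found for 8 (13.5% of all tested genes higher at that level). With total counts 8 of the 14 were above 0, with a median of 0.01. Both TAC libraries then lay above both sham libraries in 3 and below in 3 (8.74% and 47.7% of all tested genes). Mrpl3, mutated in hypertrophic cardiomyopathy, was at 73.6 and 77.4 CPM in sham and 91.0 and 84.7 CPM in TAC (0.22 ± 0.08, edgeR adjusted p = 0.125). Mrpl44, also mutated in hypertrophic cardiomyopathy, was at 35.2, 38.3, 42.2 and 42.2 CPM (0.20 ± 0.08, edgeR adjusted p = 0.176). Both genes were higher in each TAC than in each sham library and missed the threshold. Mrps22, another gene of this kind, was at 13.8, 13.97, 15.1 and 15.6 CPM (0.14 ± 0.11). Mrps2 (0.23 ± 0.09), Mrps7 (0.21 ± 0.09), Mrps16 (0.26 ± 0.11) and Mrps28 (0.19 ± 0.10) were likewise non-overlapping, whereas Mrps14 (0.16 ± 0.11) overlapped.

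Fold changes varied with features of the transcript more in the small than in the large subunit. Across the 29 small subunit genes, the log2 fold change had a Spearman correlation of 0.638 with the GC content of the transcript and of −0.472 with its length. Across the 49 large subunit genes these were 0.135 and −0.166. The genes share the same 4 libraries and are not independent, so these are descriptions. After a correction for length and GC content fitted over all tested genes, the medians were 0.23 and 0.22, and the median of all tested genes was 0.07. Relative to that median the subunits then stood at 0.16 and 0.14, less than the 0.23 and 0.22 with TMM and no correction. With the correction edgeR called Mrpl35, Mrpl12 and Mrpl19 (lowest adjusted p = 0.0262), where it called 4.99% of all tested genes higher.

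The other genes of mitochondrial translation had lower medians than the ribosomal proteins. Of 75 genes in 5 lists, 61 had a log2 fold change above 0, with a median of 0.13, and in 39 the TAC libraries were above the sham libraries (29.8% of all tested genes). With total counts this held for 5, and in 25 the TAC libraries were below (8.74% and 47.7% of all tested genes). The median was then −0.06, with 20 of the 75 above 0 (23.2% of all tested genes). By edgeR 0 of the 75 were called (2.58% of all tested genes called higher), 10 had an unadjusted p under 0.05, all higher (13.5% of all tested genes higher at that level, a share close to that of the 75), and the lowest adjusted p was 0.0553. The 5 proteins of the mitochondrial ribosome with other names (Dap3, Chchd1, Aurkaip1, Ptcd3 and Gadd45gip1) had a median of 0.15, from 0.04 for Ptcd3 to 0.22 for Chchd1. Among 26 assembly factors (median 0.16, 22 above 0), Mrm3, which methylates the large ribosomal RNA, was at 0.53 ± 0.13 (edgeR adjusted p = 0.0553) and C1qbp, a chaperone of the matrix, at 0.31 ± 0.08 (edgeR adjusted p = 0.0641). The 14 translation factors had a median of 0.10, with the elongation factor Tufm at 0.15 ± 0.09 and its exchange factor Tsfm at 0.27 ± 0.09. The 20 aminoacyl-tRNA synthetases and their partners had a median of 0.12, and the 10 genes of mitochondrial DNA and RNA upkeep a median of 0.09, with Tfam, which packs the DNA, at 0.23 ± 0.11 and the RNA polymerase Polrmt at −0.02 ± 0.12. With TMM the medians of these lists thus lay between those of the ribosomal proteins and the median of all genes. With total counts the median of every list was below 0, from −0.10 to −0.03 (−0.20 for all tested genes).

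The 13 mRNAs that this ribosome translates had a median of 0.31, and all 13 were above 0. In 4 of 13 both TAC libraries lay above both sham libraries, close to the 29.8% of all tested genes. With total counts the median was 0.10 with all 13 above 0, and 2 of 13 had that order (8.74% of all tested genes). With totals without mitochondrial mRNAs the median was 0.205. The mRNA mt-Co1, the largest subunit of cytochrome oxidase, was at 120056 and 126038 CPM in sham and at 179691 and 135651 CPM in TAC. The level in TAC 1 was the one that stood apart (0.36 ± 0.19, edgeR adjusted p = 0.268). By comparison, nuclear genes of the respiratory chain (84 tested) had a median of 0.18, with 79 above 0 and 0 called, and cytosolic ribosomal proteins (83 tested) a median of 0.20, with 80 above 0 and 2 called higher (2.58% of all tested genes). With total counts these were −0.01 and 0.02. The medians of these 2 groups were thus close to those of the mitochondrial ribosome under both scalings, and no test compared them.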

How the data were processed

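Cardiomyocyte RNA of 2 sham and 2 TAC mice was sequenced by the authors. Sample titles gave the groups and the replicate numbers. The labels do not say that libraries came from separate animals, which the study's methods do. The authors deposited 2 values per gene, an expected count (estimated, so at times not whole) and an FPKM. The submitters' processing notes name Bowtie2 2.2.8 and StringTie 1.3.1 and the build mm10 (GRCm38). The sources used here do not give how reads were counted, by strand or not, or shared between similar genes. Counts of 11 of the 78 genes were not whole in at least 1 library. Exons of 33 genes overlap another annotated gene (GENCODE, GRCm38), on the opposite strand in 28 and on the same strand in 8.

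Expected counts were rounded and analysed in R 4.3.3 with edgeR 4.0.16 (filterByExpr, TMM factors from 0.868 to 1.10, glmQLFit, glmQLFTest), with Benjamini-Hochberg adjustment over the 12499 genes tested and a threshold of 0.05. Biological variation over genes (the common coefficient) was 10.5%. SE values are the log2 fold change over the square root of F. CPM values use the TMM-scaled library sizes. Alternatives were DESeq2 1.42.0 and limma 3.58.1 (voom). Within edgeR they were a length and GC correction, other totals, no filter, the replicate number as a block and leaving out each library. The scripts were tested on simulated data. A single gene cannot reach p under 0.333 in an exact permutation test of 2 against 2, so each p rests on the spread pooled over genes and measures only the spread between these samples. Named genes were the 5 highest and 5 lowest fold changes of each subunit among those averaging 5 CPM or more, the 3 highest FPKM of each, and the genes of the structural and disease lists, and other genes were named beside a list's result or a call. Mrps18b, Mrps18c, Mrps36 and the genes of mitochondrial translation singled out were chosen after their values were seen. The genes and lists were chosen with earlier results of these data known. No protein sequence was used here.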

Additional observations from a re-analysis of the deposited data

How the results depend on the processing

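The counts and medians over all 4 libraries depended on scaling and filtering as follows, and the cause was not tested. The fit with no low-count filter tested 16015 genes, against 12499 with the filter. All genes called higher numbered 322, and 105 with total counts, 188 with totals without mitochondrial mRNAs, 707 with no low-count filter, 623 after the length and GC correction and 183 to 560 when a library was left out. All genes called lower numbered 304, and 423 with total counts, 450 with totals without mitochondrial mRNAs, 478 with DESeq2, 969 with no filter and 118 to 776 when a library was left out. Called Mrpl genes numbered 0, and 1 with DESeq2, 1 with limma voom, 7 with no filter (Mrpl53, Mrpl40, Mrpl33, Mrpl35, Mrpl55, Mrpl12 and Mrpl18), 3 after the length and GC correction and 0 to 5 when a library was left out. Called Mrps genes numbered 0, and 1 with no filter (Mrps23) and 0 to 1 when a library was left out. Of the other genes of mitochondrial translation 1 was called with DESeq2, 2 with no filter, 1 after the correction and 0 to 1 when a library was left out.

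The median log2 fold change of the Mrpl genes was 0.22, and 0.028 with total counts, 0.12 with totals without mitochondrial mRNAs, 0.018 in the log2 ratio of mean FPKM and 0.17 to 0.27 when a library was left out. That of the Mrps genes was 0.21, and 0.021, 0.11, 0.024 and 0.14 to 0.25 in the same settings. Total counts were also combined with leaving out a library, an alternative chosen after seeing the data. The Mrpl median then was 0.011 with sham 1 left out, 0.035 with sham 2 left out, 0.12 with TAC 1 left out and −0.044 with TAC 2 left out, and the Mrps median was −0.014, 0.0063, 0.082 and −0.052. In that setting without TAC 2, 1 Mrpl gene (Mrpl39) and 3 other genes of mitochondrial translation were called lower, among 3507 called of 12914 tested genes. The share of counts in TAC over sham was 1.02 for Mrpl and 1.01 for Mrps genes, and 1.08 and 1.07 of the counts without mitochondrial mRNAs. Among the 44 named genes, 17 had a log2 fold change of the other sign with total counts (−0.044 for Mrpl24, −0.044 for Mrpl27, −0.022 for Mrpl30, −0.12 for Mrpl4, −0.050 for Mrpl42, −0.022 for Mrpl46, −0.17 for Mrpl50, −0.16 for Mrpl57, −0.14 for Mrpl58, −0.032 for Mrps14, −0.15 for Mrps15, −0.048 for Mrps22, −0.13 for Mrps25, −0.12 for Mrps26, −9.4e-05 for Mrps28, −0.18 for Mrps30, −0.069 for Mrps31), and 17 in the log2 ratio of mean FPKM (−0.022 for Mrpl24, −0.046 for Mrpl27, −0.054 for Mrpl30, −0.11 for Mrpl4, −0.049 for Mrpl42, −0.023 for Mrpl46, −0.100 for Mrpl48, −0.17 for Mrpl50, −0.15 for Mrpl57, −0.14 for Mrpl58, −0.011 for Mrps14, −0.15 for Mrps15, −0.045 for Mrps22, −0.12 for Mrps25, −0.11 for Mrps26, −0.18 for Mrps30, −0.067 for Mrps31). With totals without mitochondrial mRNAs 8 did (−0.029 for Mrpl4, −0.078 for Mrpl50, −0.075 for Mrpl57, −0.054 for Mrpl58, −0.062 for Mrps15, −0.036 for Mrps25, −0.024 for Mrps26, −0.089 for Mrps30). When a library was left out the log2 fold change ran from −0.032 to 0.32 for Mrpl27, from −0.072 to 0.12 for Mrpl50, from −0.14 to 0.20 for Mrpl57, from −0.010 to 0.11 for Mrpl58, from −0.034 to 0.18 for Mrps26, from −0.0023 to 0.027 for Mrps30, each of which crossed 0. None of these genes was called in any setting. Among the same 44 genes the call was gained by 1 with DESeq2, 1 with limma voom, 2 after the correction, 7 with no filter and 5 without TAC 2, and the replicate block left all 44 on the same side of the threshold and of 0.

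Libraries of the same number did not deviate together (r = −0.28 over 8492 genes). With a single difference in each group, this cannot show whether the numbers pair the samples. The study's methods speak of pairs of sham and TAC mice. With the replicate number as a block 0 of the 78 genes and 566 of all genes were called, and the medians were 0.22 and 0.21. With the crossed pairing, chosen after seeing the data, edgeR called 13 Mrpl genes, 3 Mrps genes and 3 other genes of mitochondrial translation higher. That setting called many more genes in all, 968 of the 12499 tested genes higher and 1163 lower. With 2 libraries per group, leaving out 1 assumes that the lone library varies like the others. No result could be examined for an outlying library, since that takes at least 4 per group. At 162 to 3282 counts per gene and library, the SE of these genes was 0.07 to 0.17. In the edgeR test with the filter, TMM scaling and no block, the smallest log2 fold change called in any tested gene was 0.31, and smaller ones were called in other settings.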
